A study of Bos taurus with 8 samples.

Results

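bta-miR-103 and bta-miR-107 are 2 of the 763 cattle microRNAs measured on the array, and they were taken by name, by a rule that holds no measured value, though earlier results of these data were known when it was set. Both miRNAs passed the detection filter, which kept 269 miRNAs for testing, and both were detected on all 8 arrays. Each of the 8 arrays was hybridised with RNA from the udder tissue (mammary gland) of a single animal. The animals were healthy non-pregnant heifers, 4 Holstein-Friesian (a dairy breed, the reference group) and 4 Limousin (a beef breed). Their age is given as 20 months in the sample records and as 2 years in the protocol text, and no treatment, transgene or lactation was involved. Udders were taken at slaughter, the tissue was held in RNAlater, and 100 ng of total RNA per animal was labelled with Cyanine 3-pCp. The study set the beef breed against the dairy breed, and the comparison here asks how the level of each miRNA, their ratio and their stability differed between the breeds.

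MicroRNAs are short RNAs that guide Argonaute proteins to messenger RNAs, mostly through the seed near their 5′ end, and lower the output of the matched messages. miR-103 and miR-107 are near-identical paralogues that share a seed, lie in introns of the pantothenate kinase genes, and are known as negative regulators of insulin sensitivity in liver and adipose tissue (through caveolin-1) and of the miRNA-processing enzyme Dicer. Pantothenate kinases carry out the first committed step of coenzyme A synthesis, which feeds fatty acid metabolism, and the mammary gland is a tissue of high lipid synthesis once it lactates. In the RefSeq gene table for ARS-UCD2.0, the MIR103-1 precursor lies within PANK3 on chromosome 20, MIR103-2 within PANK2 on chromosome 13 and MIR107 within PANK1 on chromosome 26. The array reads the mature miRNA and cannot tell the 2 precursors of miR-103 apart.

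Each miRNA is read by a short and a long probe, each printed at 30 spots per array. The 4 probe sequences are shown because the ratio of the paralogues rests on how far their probes differ. They are written 5′ to 3′ as they stand in the array files, and the capitals mark the 15-base stretch that all 4 probes share and that no other of the 1657 miRNA probes on the array holds. The g that follows it stands in every probe but the short miR-103 one, so the long probes share that base as well.
miR-103 short: tcATAGCCCTGTACAAT
miR-103 long: tcATAGCCCTGTACAATg
miR-107 short: gATAGCCCTGTACAATg
miR-107 long: gATAGCCCTGTACAATgc
The miR-103 probes are 17 and 18 bases long with 41.2% and 44.4% G or C, and the miR-107 probes are 17 and 18 bases long with 47.1% and 50% G or C. The array's own annotation, on the UMD 3.1 build, places the long miR-103 probe at both chr13:51742474-51742491 and chr20:189907-189924 and the long miR-107 probe at chr26:11288048-11288064. It places the short miR-103 probe at chr13:51742475-51742491 and chr20:189908-189924 and the short miR-107 probe at chr26:11288049-11288064. The annotated spans of the short and long miR-107 probes are 16 and 17 bases, each 1 shorter than its probe. Those of the miR-103 probes match the probe lengths. How much of either mature miRNA binds the other's probes was not tested. The long probe was the brighter of each pair and stands for its miRNA below. Levels are log2 signals brought to a common 75th percentile, taken per array over those probes that every array detected, so a unit is a doubling. A level of one probe is not set against that of another, since probes differ in how strongly they bind.

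The arrays of the breeds differed in brightness before scaling. The 75th percentile of the signal was 557 to 939 on the Holstein-Friesian arrays and 943 to 1579 on the Limousin arrays, and 243 to 267 against 271 to 297 miRNAs were detected. All 8 arrays were on 1 slide, with the breeds at different positions throughout, so the position on the slide and the breed cannot be told apart. No spot of either miRNA was saturated. After scaling, 113 of 269 tested (42%) passed the breed comparison at an adjusted p under 0.05 in limma, 37 higher in Limousin (13.8%) and 76 lower (28.3%). The count was 71 without Limousin replicate 1 and 73 without Holstein-Friesian replicate 4, and the split was 172 higher and 2 lower with no scaling. The samples are separate animals, and since they are bulk tissue, fewer cells of a type and less RNA per cell cannot be told apart.

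miR-103 held nearly the same scaled level in both breeds. It read 10.49, 10.82, 10.57 and 10.47 in Holstein-Friesian replicates 1 to 4 and 10.55, 10.60, 10.56 and 10.62 in Limousin replicates 1 to 4. The groups overlapped, the Holstein-Friesian animals lay on both sides of the Limousin ones, and Holstein-Friesian replicate 2 was the highest of the 8. The means were 10.59 ± 0.16 (SD, n = 4) and 10.58 ± 0.029 (SD, n = 4). Limousin over Holstein-Friesian was 0.996-fold, with a 95% interval from limma of 0.837 to 1.19 and an adjusted p of 0.981. This test leaves differences of either sign within that interval possible, so it does not show that the breeds are equal. The direction near 0 is set by the scaling: the Limousin mean was 0.85 above the Holstein-Friesian mean on the log2 scale with no scaling, 0.78 above with labelling spike-ins as the reference, 0.32 above with the percentile over all probes. Correcting for the GC content and length of the probes instead gave a log2 difference of -0.21. Against the median of all tested miRNAs, which was -0.065, the miR-103 difference was 0.060 higher. Its distance from the median changed sign between settings, from -0.11 with cyclic loess to 0.37 with no background subtracted.

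miR-107 was 1.22-fold the Holstein-Friesian level in Limousin, a difference that did not pass the adjusted test. It read 8.95, 9.31, 9.25 and 9.03 in Holstein-Friesian replicates 1 to 4 and 9.45, 9.37, 9.36 and 9.52 in Limousin replicates 1 to 4. Every Limousin animal lay above every Holstein-Friesian animal, by 0.052 between the lowest Limousin and the highest Holstein-Friesian. Of all tested miRNAs, 43 (16%) had every Limousin array above every Holstein-Friesian array, and 99 (36.8%) had no overlap in either direction. The means were 9.14 ± 0.17 (SD, n = 4) and 9.42 ± 0.076 (SD, n = 4). The log2 difference was 0.29 with an SE of 0.12, a 95% interval in fold of 1.02 to 1.46, and in limma an unadjusted p of 0.0335 and an adjusted p of 0.0713. Limousin was higher in all 27 other settings tried, and 6 of them passed. The adjusted p was 0.0249 without Holstein-Friesian replicate 2, with a difference of 0.35. It was 0.00058 with no scaling and 0.289 with the GC and length correction, where the difference was 0.13. The miR-107 difference lay 0.35 above the median of all tested miRNAs, and 0.24 to 0.60 above it under the other scalings, backgrounds and probe summaries.

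**Figure D1:**
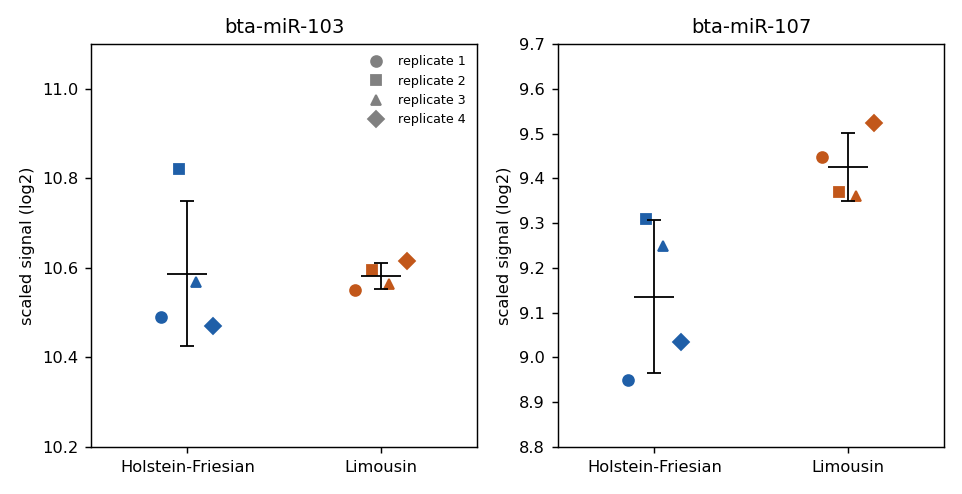
Scaled log2 level of miR-103 and miR-107 on each of the 8 arrays, by breed, with each point an animal and the line the mean with its SD (n = 4). The breeds overlap for miR-103, at means of 10.59 and 10.58, while for miR-107 the Limousin animals (9.36 to 9.52) all lie above the Holstein-Friesian animals (8.95 to 9.31).

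The ratio of miR-103 to miR-107 was higher in every Holstein-Friesian animal than in any Limousin animal. The log2 ratio was 1.54, 1.51, 1.32 and 1.43 in Holstein-Friesian replicates 1 to 4 and 1.103, 1.23, 1.20 and 1.09 in Limousin replicates 1 to 4. The lowest Holstein-Friesian value was 0.092 above the highest Limousin value. How often ratios of other miRNA pairs separate the breeds was not counted. For single levels, 99 of 269 tested miRNAs (36.8%) had no overlap in either direction. The SE of the ratio from the spots of a single array was 0.014 to 0.022, well below the spread between animals. The means were 1.45 ± 0.099 (SD, n = 4) and 1.16 ± 0.069 (SD, n = 4), a difference of -0.29 with an SE of 0.060, which makes the ratio 1.23-fold higher in Holstein-Friesian. The exact two-sided permutation p over the 70 relabellings was 0.0286, the smallest that 4 animals against 4 can give. The size of the ratio itself depends on how the probes bind, and only its difference between arrays is read here. The ratio is formed within an array, so a scaling factor common to all probes drops out of it.

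Brightness also differed between the breeds, and its part in the ratio difference was not tested. Holstein-Friesian replicate 3 was the brightest array of its breed and Limousin replicate 3 the dimmest of its own, with 75th percentiles of 939 and 943. On these arrays miR-103 had unscaled signals of 1485 and 1485, miR-107 had 595 and 645, and the log2 ratios were 1.32 and 1.20. That pair has 1 animal a breed and no test, its ratios lie closer together than the breed means, and since the breeds do not overlap any such pair gives this direction. The brightest Limousin array (replicate 2) had the highest ratio of its breed, and the brightest Holstein-Friesian array (replicate 3) had the lowest of its own. These are single arrays. Every Limousin array was brighter than every Holstein-Friesian array, so brightness and breed cannot be told apart. Without Limousin replicate 1 the difference was -0.28 with an exact permutation p of 0.0571, and without Limousin replicate 4 it was -0.27 with the same p.

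**Figure D2:**
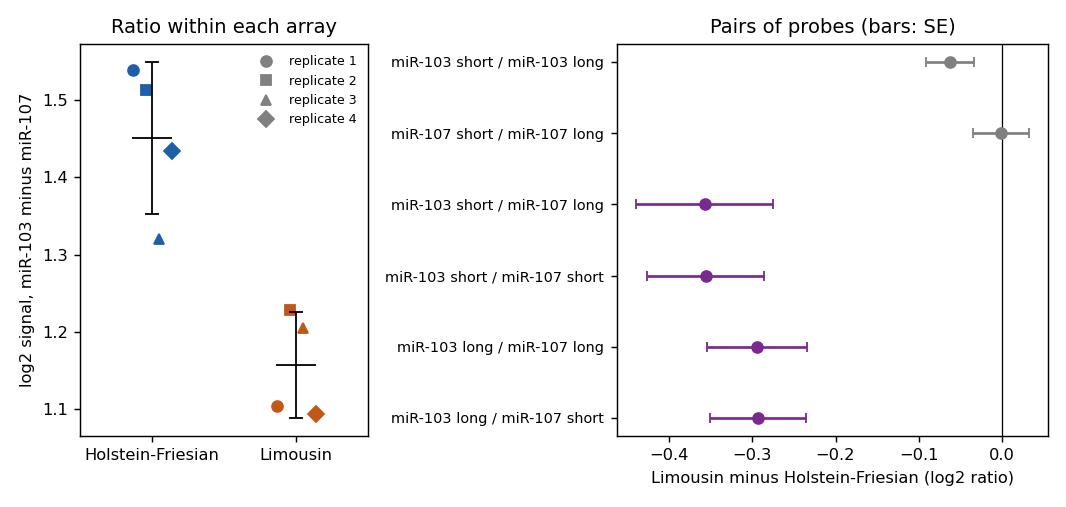
Left, log2 ratio of miR-103 to miR-107 per animal (long probes), by breed, with the mean and SD (n = 4); right, Limousin minus Holstein-Friesian log2 ratio for the 6 probe pairs, with SE bars, purple for pairs between the miRNAs and grey for pairs within one. Holstein-Friesian animals span 1.32 to 1.54 and Limousin animals 1.09 to 1.23, and the 4 pairs between the miRNAs lie from -0.36 to -0.29.

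The short probes read the same direction in the ratio. Over the 6 pairs that 4 probes form, the 4 pairs that set a miR-103 probe against a miR-107 probe differed by -0.36 (SE 0.070, short against short), -0.36 (SE 0.082, miR-103 short against miR-107 long), -0.29 (SE 0.058, miR-103 long against miR-107 short) and -0.29 (SE 0.060, long against long). The breeds did not overlap in any of these 4 pairs, and each had an exact permutation p of 0.0286 and an adjusted p of 0.0429 over the 6 pairs. The pairs within a miRNA differed less: -0.063 (SE 0.029) for miR-103 short against long, with an exact permutation p of 0.0571 and an adjusted p of 0.0686, and -0.0012 (SE 0.033) for miR-107, with a p and adjusted p of 1. The 4 probes are not independent, since those of a miRNA read the same molecules. The 4 pairs between the miRNAs share these probes, so their adjusted p counts the same separation repeatedly and adds no support. Fitted with all 492 tested probes, of which 200 (40.7%) passed, none of the 4 passed in limma: miR-103 short differed by -0.068 (adjusted p 0.680), miR-103 long by -0.0054 (0.983), miR-107 short by 0.29 (0.0832) and miR-107 long by 0.29 (0.0732). The miR-107 short probe was the dimmest of the 4, at 6.77 ± 0.19 in Holstein-Friesian and 7.06 ± 0.070 in Limousin (SD, n = 4), and it is the only one of the miR-107 probes to change sign, to -0.022, when no background was subtracted.

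**Figure D3:**
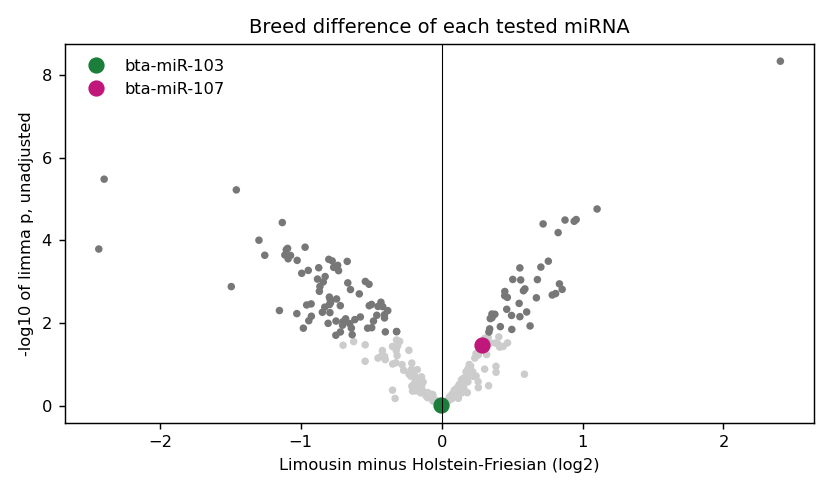
Limousin minus Holstein-Friesian (log2, horizontal axis) against -log10 of the unadjusted limma p (vertical axis) for the 269 tested miRNAs, dark grey where the adjusted p passed, with miR-103 (-0.0054) and miR-107 (0.29) in colour. miR-103 lies at the foot of the plot and miR-107 just below the 113 that passed.

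miR-103 was among the steadier miRNAs of these arrays, more so than miR-107. Over the 8 arrays its SD was 0.11 on the log2 scale, rank 9 from the lowest of the 232 miRNAs detected on all arrays, against 0.20 for miR-107, at rank 67, and a median of 0.26. Within breeds the SDs were 0.12 (rank 29) and 0.13 (rank 55) against a median of 0.20. The miRNAs thus lay closer together in spread within breeds than over all arrays. miR-103 varied least in the Limousin animals, where its SD of 0.029 was the lowest of the 232 (median 0.15), whereas in Holstein-Friesian its SD of 0.16 was at rank 73 (median 0.24). For miR-107 the SD was 0.076 in Limousin (rank 18) and 0.17 in Holstein-Friesian (rank 81). The ratio, at 0.085 within breeds, varied less than either miRNA. Without Holstein-Friesian replicate 2 the SD of miR-103 over the remaining arrays was 0.054.

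These ranks moved with the scaling. Over 10 other settings, the rank of miR-103 over the 8 arrays ran from 5 to 106 and that of miR-107 from 17 to 181, and the Limousin rank of miR-103 from 2 to 131. The order of the paralogues also changed. With the GC and length correction the SD over the 8 arrays was 0.14 (rank 31) for miR-103 and 0.11 (rank 17) for miR-107. Within breeds miR-107 had the lower SD with median, quantile, cyclic loess (0.14 against 0.15) and normexp. With no scaling the SDs over the 8 arrays were 0.54 and 0.70, so the low spread of miR-103 holds relative to a scaling.

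Scalings that multiply all probes of an array by a factor (none, median, spike-ins, either percentile) cannot move the ratio difference. In the alternatives that could move it (quantile, cyclic loess, normexp, no background subtraction, the GC and length correction, other probe summaries and the deposited table) it ran from -0.36 (cyclic loess) to -0.23 (no background subtraction), each with an exact permutation p of 0.0286, below which this design cannot go. The authors' deposited value table, which holds the log2 of each miRNA's total signal minus a constant per array (the largest deviation was 9.7e-06), gave log2 ratios of 2.02, 1.99, 1.79 and 1.92 in Holstein-Friesian and 1.55, 1.68, 1.68 and 1.54 in Limousin. In that table, miR-103 read 4.29, 4.77, 4.43 and 4.34 against 4.68, 4.73, 4.72 and 4.70, and the breeds overlapped. miR-107 read 2.27, 2.78, 2.65 and 2.42 against 3.13, 3.04, 3.04 and 3.16, and they did not. Fitted with limma, these values gave differences of 0.25 (adjusted p 0.113) and 0.57 (adjusted p 0.0097), so miR-107 passed there, with the median of all tested miRNAs at 0.25. The per-array constant is not explained in the sources used here, and the array medians in the table ran from -9.79 to -8.53.

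**Figure D4:**
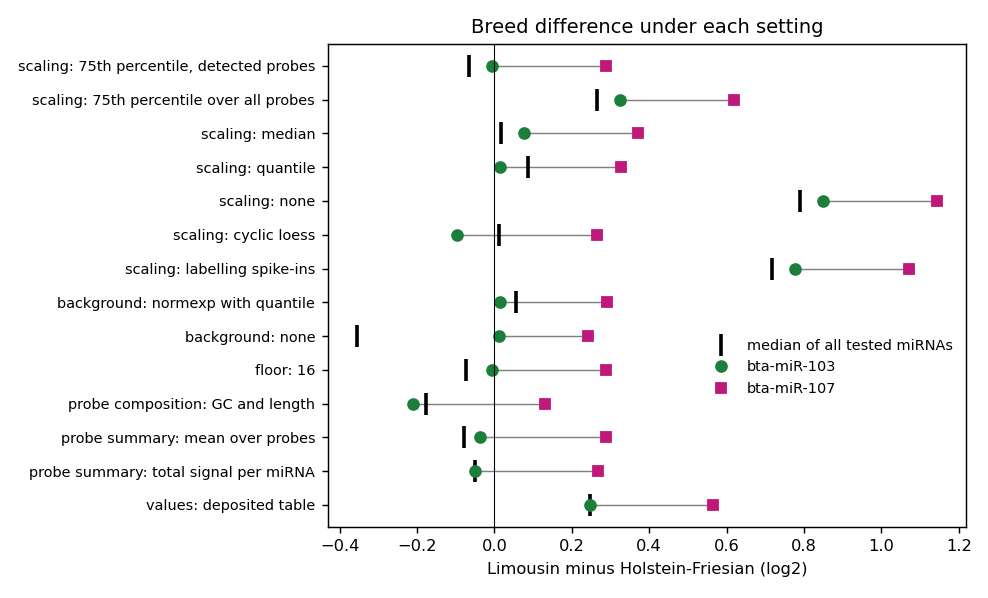
Limousin minus Holstein-Friesian (log2) for miR-103, miR-107 and the median of all tested miRNAs under each setting. The miRNAs move with the median where the scaling multiplies all probes of an array by a factor, but not in every setting. With no background subtracted the median is -0.36, with miR-103 at 0.012 and miR-107 at 0.24. miR-107 stays to the right of miR-103 in each setting, and the gap between them is between 0.23 and 0.36.

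Probe composition was also compared, since the arrays' miRNAs differ in it. Among the 48 tested miRNAs whose probe lies within 5 percentage points of GC and 1 base of the miR-103 probe, itself included, the median difference was 0.11 and miR-103 ranked 32 from the highest. Among the 48 around the miR-107 probe the median was 0.021 and miR-107 ranked 10. In the first set 10 of 48 passed higher and 6 lower, and in the second 8 and 6, where 13.8% and 28.3% of all tested miRNAs did. Corrected for both properties, the miRNAs differed by -0.21 (adjusted p 0.0963 in limma) and 0.13 (adjusted p 0.289).

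The paralogues were not each other's nearest match across the arrays. Likeness was the root mean square difference between profiles centred on their own mean over the 8 arrays, among 231 other miRNAs detected on all of them. For miR-103 the nearest were miR-17-3p (0.062), miR-324 (0.064), miR-143 (0.076), miR-148b (0.083) and miR-151-3p (0.091). None of these 5 passed the breed test, and miR-107 was at rank 40 (0.16, against a median of 0.27). miR-143 is abundant in smooth muscle and stroma, and miR-17-3p is the minor arm of a proliferation-associated cluster. For miR-107 the nearest were miR-411a (0.059), miR-106b (0.068), miR-16a (0.072), miR-25 (0.077) and miR-199a-5p (0.086), and miR-103 was at rank 50. miR-106b and miR-25 come from the same cluster in an intron of MCM7. Of these, miR-25 (log2 difference 0.33, adjusted p 0.0400) and miR-199a-5p (0.36, 0.0230) rose in Limousin by the limma test. miR-411a (0.24, 0.130), miR-106b (0.33, 0.0662) and miR-16a (0.33, 0.0515) did not pass it. With the GC and length correction both calls were lost, at 0.22 (adjusted p 0.113) for miR-25 and 0.15 (0.201) for miR-199a-5p. These profiles share arrays and scaling, so they are not independent of each other. The centred profiles also hold the breed difference, so the choice of neighbours largely set which of them passed. Their test results are therefore no separate support. Of all tested miRNAs, 42% passed in either direction and 13.8% passed higher in Limousin. miR-25 missed the threshold when any array other than Holstein-Friesian replicate 2 was left out (adjusted p 0.0627 without Holstein-Friesian replicate 3 and 0.119 without replicate 4), and miR-199a-5p missed it without Holstein-Friesian replicate 1 or 4 or Limousin replicate 1 or 4 (0.0581 to 0.0777). miR-106b passed without Holstein-Friesian replicate 2 (0.0159), and miR-16a without Holstein-Friesian replicate 2 or 3 (0.0336 and 0.0279).

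miR-16a belongs to the miR-15 and miR-16 group, whose seed matches that of the paralogues shifted by 1 base and which restrains cell cycle genes. Of 9 listed members, 8 were on the array and 7 were tested. In Limousin 3 were higher, 0 were lower and 4 missed the threshold, with a median difference of 0.33 beside -0.065 for all 269 tested (13.8% of all rose). The 3 were miR-424-5p (0.55, SE 0.14, adjusted p 0.0145 in limma), miR-15a (0.46, SE 0.13, adjusted p 0.0173) and miR-16b (0.42, adjusted p 0.0328). miR-15a missed the threshold without Holstein-Friesian replicate 4 or Limousin replicate 1 or 4 (0.0566, 0.0543 and 0.0511). After the GC and length correction 0 of the 7 rose and 1 fell, with a median of 0.080, and miR-424-5p and miR-15a were at 0.20 (adjusted p 0.137) and 0.16 (0.253). miR-107's own difference of 0.29 was close to that group's median.

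The next list holds miRNAs of insulin and glucose metabolism, a setting in which miR-103 and miR-107 are known. Of 22 listed, 21 were on the array and 18 were tested. 7 rose, 1 fell and 10 did not pass (13.8% and 28.3% of all tested rose and fell), with a median of 0.29 beside -0.065 for all tested. The 7 were miR-29a (0.60), miR-29b (0.84) and miR-29c (0.67) of a single family, the related miR-221 (0.45) and miR-222, let-7i and miR-375. Members of a family are not independent of each other, so the 7 are not separate results. Of the 18, miR-375 and miR-33a were tested only through their detection in Limousin. Among the 16 detected on all 8 arrays, 6 rose and 1 fell, with a median of 0.23, where 13.4% and 28% of the 232 such miRNAs rose and fell. let-7i, of the let-7 family that targets insulin receptor signalling genes, went from 9.74 ± 0.16 to 10.45 ± 0.21 (SD, n = 4), a difference of 0.70 with an adjusted p of 0.0043 in limma, and 0.24 with an adjusted p of 0.138 after the GC and length correction. miR-222, which targets the cell cycle inhibitor p27, rose by 0.50 (adjusted p 0.0066), and by 0.25 with no background subtracted (adjusted p 0.0616). miR-375, a pancreatic islet miRNA among the 7, and miR-33a were each detected on 0 Holstein-Friesian and 4 Limousin arrays, so miR-375 has only a bound and no fold is given. The member that fell was miR-181a, by 0.51 (adjusted p 0.0150), and it was 0.34 higher in Limousin with no scaling (adjusted p 0.304). With no scaling 17 of the 18 rose, and after the GC and length correction 4 rose and 2 fell.

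Of 21 listed adipocyte miRNAs, 20 were on the array and 17 were tested, of which 2 rose, 6 fell and 9 did not pass, with a median of -0.073. Over all tested miRNAs 13.8% rose and 28.3% fell, with a median of -0.065, so the list lay near the background. The 2 with the smallest p were miR-378b and miR-378c, relatives of miR-378, which lies in an intron of PPARGC1B and is known in adipocyte lipid metabolism. miR-378b differed by -0.78 (adjusted p 0.0036 in limma) and miR-378c by -0.73 (adjusted p 0.0047). The latter was detected on 3 Holstein-Friesian and 4 Limousin arrays, so it was tested only through Limousin. Among the 15 listed miRNAs detected on all 8 arrays, 2 rose and 5 fell, where 13.4% and 28% of the 232 such miRNAs did. miR-378b and miR-378c turned to 0.077 and 0.12 with no scaling. The risers were miR-27b and miR-21-5p. With no scaling 10 of the 17 rose and 0 fell, so the direction of this list changed with the scaling. After the GC and length correction 0 rose and 6 fell, with a median of -0.26 beside -0.18 for all tested.

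The tissue label was set against marker miRNAs, beside a background of 13.8% higher and 28.3% lower among all tested, and their counts changed with the setting. Of 9 epithelial markers 8 were tested and detected on all 8 arrays, with a summed scaled signal of 18059 to 20303 in Holstein-Friesian and 19162 to 21048 in Limousin. By limma 0 of the 8 passed, and 0 had an unadjusted p under 0.05, against 5 higher with the percentile over all probes, 8 with no scaling or with spike-ins and 2 in the deposited table. With quantile scaling or normexp 1 was higher and 1 lower, and with cyclic loess or the GC and length correction 0 were higher and 1 lower. Stromal fibroblast markers were higher in 3 of 5, all of them miR-199 entries (miR-199a-3p, miR-199a-5p and miR-199b). The others, miR-214 (0.0048, adjusted p 0.981 in limma) and miR-10b (-0.097, adjusted p 0.603), did not pass. The sums of 5900 to 6682 and 7308 to 9154, which include the miR-199 entries, did not overlap. Among single tested miRNAs, 36.8% had no overlap in either direction. All 5 stromal markers were higher with no scaling, and 0 were higher and 1 lower after the GC and length correction. Leukocyte markers were higher in 2 of 5 tested, with overlapping sums of 1506 to 2020 and 1930 to 2304, in 5 with no scaling and in 1 after that correction. Neither endothelial marker passed, with overlapping sums of 2737 to 3509 and 3180 to 4006. Both were higher with no scaling, spike-ins, the percentile over all probes and the deposited table. With normexp 1 was higher, and after the GC and length correction 0 were. The defining skeletal muscle markers were at or near background, with 1 of 7 tested and sums of 54.5 to 99.6 against 46.5 to 100.35. Of the 3 erythroid markers 1 was tested and did not pass, with sums of 42.4 to 149 and 42.5 to 59.6. miR-143, abundant in smooth muscle and stroma as given above, is also on the adipocyte list and is not particular to adipocytes. Of the 3 adipocyte markers on the array 2 were tested (miR-143 and miR-365-3p), with overlapping sums of 819 to 1068 and 658 to 835. Of these, miR-365-3p was lower (log2 difference -0.40, adjusted p 0.0400), but 0 passed lower with median scaling, the percentile over all probes or the deposited table, and with no scaling miR-365-3p was 0.45 higher (adjusted p 0.168). Liver and neural markers were detected on no array. No sum was tested between the breeds, and the part of these cell types in the miR-107 level and the ratio was not tested.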

How the data were processed

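Each array was read with Agilent Feature Extraction 10.10.1.1, per the file headers, whose deposited processed signal per spot (an intensity, background-subtracted) was used. The deposited value table holds log2 values. Control spots and outlier-flagged spots were left out. Spots were averaged per probe, the signal was scaled by the array's 75th percentile over probes detected on all 8 arrays, floored at 1 and taken to log2. A miRNA counted as detected where more than 50% of the spots of one of its probes were flagged by the software as well above background, and was tested where detected on all 4 arrays of a breed. The probe with the highest mean stood for a miRNA. Breeds were compared in limma 3.58.1 (R 4.3.3) with Benjamini-Hochberg adjustment over all tested miRNAs at 0.05, and the ratio by an exact permutation test. The code was tested on simulated data. Named miRNAs are both paralogues, the 5 nearest profiles of each and the 2 smallest p-values of each list. Added with their values known were miR-16b, miR-375, miR-181a, miR-27b, miR-21-5p, miR-365-3p, miR-29a, miR-29b, miR-29c, miR-221, miR-199a-3p, miR-199b, miR-214 and miR-10b. The members and lists were chosen with earlier results of these data known. Alternatives changed scaling, background, floor, filter, probe correction and summary, variance model, weights, replicate block and each animal in turn. Genome positions come from the array annotation on UMD 3.1. Depth has no meaning for arrays, and their number limits the precision.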

Additional observations from a re-analysis of the deposited data

Results flagged for a closer look

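Of 46 groups of 4 arrays tested with Dixon's criterion, 2 held an array far from the others, where chance gives about 1 in 20. The short miR-103 probe read 10.25 in Holstein-Friesian replicate 2 against 9.89 to 9.93 in the others, a gap of 0.894 of the range, past the 95% critical value. The same animal was also the highest for the long probe (10.82), and for the ratio it was not apart (1.51). miR-17-3p, the nearest profile to miR-103, read 7.43 in Limousin replicate 4 against 7.34 to 7.35, a gap of 0.858 of a narrow range.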

How the results depend on the processing

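Differences are Limousin minus Holstein-Friesian, on the log2 scale. miR-103 turned from -0.0054 to 0.32 with the percentile over all probes, 0.076 with median scaling, 0.015 with quantile scaling, 0.85 with no scaling, 0.78 with spike-ins, 0.014 with normexp, 0.012 with no background subtracted, 0.25 in the deposited table and 0.072 with array weights, and leaving out each animal gave -0.045 to 0.073. It passed in 2 of the 27 alternatives, with no scaling and with spike-ins. miR-107 passed with the percentile over all probes (0.62), no scaling (1.14), spike-ins (1.07), the deposited table (0.57) and array weights (0.36), and leaving out each animal gave 0.23 to 0.35. The count of 113 became 174 with no scaling, 176 with spike-ins (172 higher, 4 lower) and 60 with the GC and length correction and replicate block together, and 71 to 148 without each animal in turn. Split by direction it was 104 higher and 30 lower with the percentile over all probes, 81 and 28 in the deposited table, 56 and 43 with quantile scaling and 27 and 142 with no background subtracted. Replicate numbers did not pair the animals (correlations of -0.30, -0.25, -0.45 and 0.31 for the same numbers). With the replicate block the ratio difference was -0.29, and -0.34 with the GC and length correction too, both with an exact sign-flip p of 0.125, the smallest that 4 pairs allow; 84 miRNAs passed and miR-107 had an adjusted p of 0.190 in limma. Leaving out each animal gave a ratio difference of -0.34 to -0.27.

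Of the other miRNAs, miR-324 turned to 0.32, 0.074, 0.20, 0.85, 0.17 and 0.77 with the percentile over all probes, median, quantile, no scaling, cyclic loess and spike-ins, to 0.092 with normexp, 0.26 in the deposited table and 0.020 with weights. miR-143 turned to 0.27, 0.018, 0.079, 0.79, 0.026 and 0.72 with the same scalings in that order, to 0.061 with normexp and 0.22 in the deposited table. miR-378b and miR-378c turned to 0.077 and 0.12 with no scaling and 0.0038 and 0.049 with spike-ins. With no background subtracted miR-17-3p turned to -0.11, miR-148b to -0.14 and miR-151-3p to -0.095, and miR-148b was -0.27 with the GC and length correction, with and without the block. Leaving out each animal gave -0.047 to 0.061 for miR-324 and -0.022 to 0.099 for miR-148b. The short miR-103 probe turned to 0.26 with the percentile over all probes, 0.014 with the median, 0.79 with no scaling, 0.71 with spike-ins and 0.0015 with weights, and ranged from -0.10 to 0.017 without each animal. The long one turned as miR-103 did (0.073 with weights), and the short miR-107 probe to -0.022 with no background subtracted. The cause of these changes was not tested. The number of arrays and, for the dim short miR-107 probe, its signal over background limit the precision.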
